A study of Mus musculus with 6 samples.

Results

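The genes described here encode the proteins of the mitochondrial ribosome. They were taken as every entry of the deposited expression table whose symbol begins with Mrpl or Mrps followed by a digit, which gave 76 of 13724 entries, 47 of them Mrpl (named for the large subunit) and 29 Mrps (named for the small subunit). All samples came from wild type C57Bl6/J mice that went through a warm challenge, numbered 1 to 3, and the labels do not describe the challenge further. The anterior hypothalamus was dissected from sections of 0.5 mm, and the labels call the tissue preoptic neurons. From each challenge 1 library was made of total RNA (the input) and 1 of RNA pulled down with an antibody against ribosomal protein S6 phosphorylated at sites 244 and 247 (the immunoprecipitate, IP), so that 3 inputs faced 3 IP libraries. Phosphorylation of S6 on cytosolic ribosomes follows neuronal activity, and the pull-down is called PhosphoTRAP. No group without a warm challenge was analysed. The labels state neither age nor the number of mice behind a library, and nothing in them says that libraries came from separate mice. P-values therefore measure the spread between these libraries, which may be technical.

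Mitochondria keep a small genome of their own, whose messenger RNAs for core subunits of the respiratory chain are read by a ribosome inside the organelle. The RNA of that ribosome is made in the mitochondrion, but its proteins are all encoded in the nucleus, translated on cytosolic ribosomes and imported. Some of these proteins descend from bacterial ribosomal proteins and others are found only in mitochondria. In neurons they support the oxidative metabolism on which firing and synaptic transmission depend. The symbols do not always give the place of the protein. The products of Mrps30 and Mrps18a sit in the large subunit, and that of Mrps36 is now known as a component of the alpha-ketoglutarate dehydrogenase complex of the citric acid cycle.

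Promoters of such genes are known for binding sites of NRF1 (nuclear respiratory factor), of ETS family factors such as GABP, and of YY1. RefSeq (build GRCm38.p6) gave the bases around the start of 67 of the 76 genes. Below are the 120 bases before the start, on the strand of the gene, for the 2 genes with the smallest p-values of IP against input (Mrpl9 and Mrpl35) and the 2 with the highest input levels (Mrps21 and Mrpl52), with matches to the NRF1 and ETS motifs in capitals. Mrpl9 lies on the plus strand of chr3:94443216-94443335, Mrpl35 on the minus strand of chr6:71823785-71823904, Mrps21 on the minus strand of chr3:95871515-95871634 and Mrpl52 on the plus strand of chr14:54426789-54426908.
Mrpl9: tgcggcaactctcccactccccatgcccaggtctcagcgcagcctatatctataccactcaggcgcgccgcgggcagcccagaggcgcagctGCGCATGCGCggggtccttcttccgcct
Mrpl35: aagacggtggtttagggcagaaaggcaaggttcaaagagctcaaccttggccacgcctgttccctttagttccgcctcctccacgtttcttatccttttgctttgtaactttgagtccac
Mrps21: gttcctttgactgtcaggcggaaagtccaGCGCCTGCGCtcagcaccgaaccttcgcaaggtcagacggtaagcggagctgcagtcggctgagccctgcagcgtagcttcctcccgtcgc
Mrpl52: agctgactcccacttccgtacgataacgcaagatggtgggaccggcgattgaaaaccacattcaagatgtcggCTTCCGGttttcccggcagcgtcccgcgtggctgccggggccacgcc
Mrpl9 and Mrps21 hold an NRF1 match and Mrpl52 an ETS match in this stretch, while that of Mrpl35 holds no match to either. Mrpl35 has a YY1 match in its longer window of 300 bases.

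The values are RPKM, read numbers scaled to gene length and library size, as the authors deposited them. They hold no counts of reads, so depth is unknown, and the lowest value listed for any gene is 0.101 RPKM. Neuronal markers were present, with 5 of 6 listed and a summed level of 2656 to 6135 RPKM over the libraries. Oligodendrocyte markers summed to 920.3, 976.4 and 1040 RPKM in inputs 1, 2 and 3 (8 of 8 listed). In IP they summed to 273.8 to 330.2 RPKM. All 8 had all 3 IP values below all 3 inputs, beside 23.5% of all genes tested. At an adjusted p under 0.05 (limma, described below) 7 of the 8 were called lower in IP, beside 3.29% of all genes. Astrocyte markers summed to 54.3 to 99.2 RPKM in the inputs and 27.9 to 85.4 RPKM in IP (6 of 6). Microglial markers summed to 3.96 to 14.8 RPKM (6 of 6 listed), and of 5 endothelial markers 1 was listed, at 0.280 to 0.626 RPKM, while Cldn5, Flt1, Tek and Cdh5 were not. All 6 activity-induced genes had all 3 IP values above all 3 inputs, beside 6.85% of all genes tested. At the same threshold 5 of the 6 were called higher in IP and 0 lower, Fosb and Junb among the former. Over all genes tested 0.892% were called higher. Arc was the gene not called (log2 fold 1.57, adjusted p = 0.0630 by limma). With each library left out in turn, the calls of Fosb, Junb, Mal, Mobp and Ermn held in all 6 omissions, and those of the other called activity, oligodendrocyte and erythroid genes in 1 to 5. The part of these differences in the folds given below was not tested.

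All 76 genes were expressed in every library, from 6.56 RPKM (Mrpl19 in IP 3) to 240.4 RPKM (Mrps21 in IP 2), and all passed the filter of at least 1 RPKM in 3 or more libraries. Their median was 41.1, 43.5 and 26.1 RPKM in inputs 1, 2 and 3, and 24.8, 54.2 and 35.4 RPKM in IP 1, 2 and 3. Thus the highest and the lowest of the 6 medians were both those of IP libraries, and input 3 lay near IP 1. The median of all 12328 genes tested stayed between 8.97 and 10.6 RPKM. The summed RPKM of all entries did differ, and was lowest in input 3 (3.844e+05) and IP 1 (3.747e+05). In the other libraries it ran from 4.379e+05 (IP 3) to 4.961e+05 (IP 2). Together the 76 genes took 0.868%, 0.898% and 0.634% of the summed RPKM of inputs 1, 2 and 3, and 0.597%, 1.01% and 0.843% of that of IP 1, 2 and 3.

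**Figure D1:**
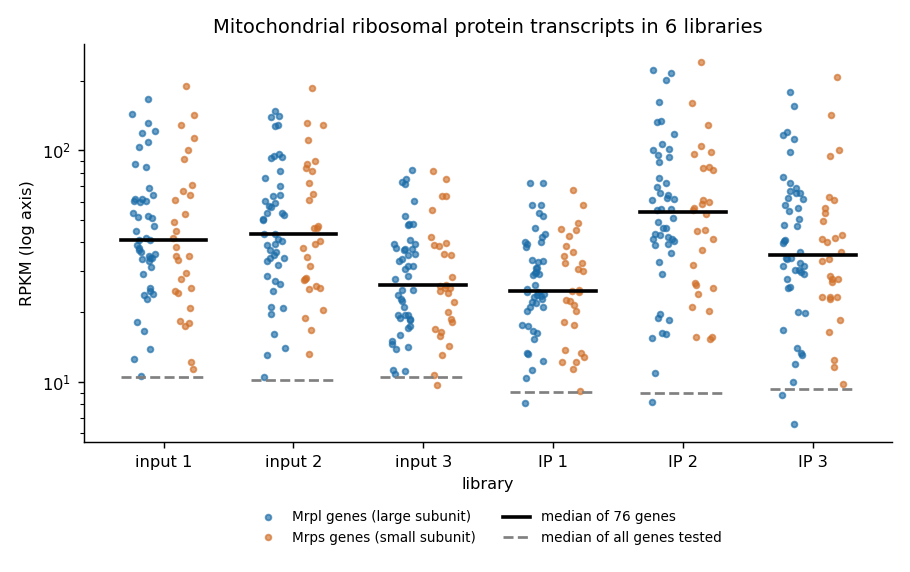
RPKM (log axis) of the 76 genes in each of the 6 libraries, with Mrpl genes in blue, Mrps genes in orange, the median of the 76 as a black line and that of all genes tested as a dashed line. The black line is lowest in IP 1 (24.8) and input 3 (26.1) and highest in IP 2 (54.2), while the dashed line hardly moves.

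Levels per length differed widely between genes. In the inputs the highest were Mrps21, a small-subunit protein with bacterial relatives, at 152.0 ± 61.2 RPKM (SD, n = 3), Mrpl52, a large-subunit protein found only in mitochondria, at 122.2 ± 61.5 RPKM, and Mrpl30 at 114.6 ± 37.0 RPKM. The lowest were Mrpl1, a protein of the stalk near the exit site for transfer RNA, at 11.3 ± 1.11 RPKM, Mrps30 at 11.7 ± 1.79 RPKM and Mrpl19 at 12.5 ± 1.67 RPKM. The spreads of the highest 3 overlapped one another, as did those of the lowest 3, so no order is given within either. The order of the 76 levels was much the same from library to library. Spearman correlations across genes were 0.91 to 0.97 for pairs of inputs and 0.84 to 0.94 for pairs of IP libraries. An input and an IP library correlated by 0.81 to 0.92. These describe 1 set of genes in libraries of unknown depth.

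The comparison of IP with input asked whether these transcripts were over- or under-represented on phosphorylated ribosomes. None of the 76 passed the threshold in either direction. At an adjusted p under 0.05 (limma on log2(RPKM + 1), Benjamini-Hochberg over all genes tested), 0 were higher and 0 lower in IP, where 4.19% of the genes tested were called in all, 0.892% higher and 3.29% lower. In bulk tissue, fewer cells of a type and less RNA per cell cannot be told apart. At an unadjusted p under 0.05, 2 of the 76 passed (Mrpl9 and Mrpl35), against 24.4% of all genes. With challenge number as a block, limma also called 0 members, beside 5.32% of all genes (1.33% higher and 3.99% lower). Its unadjusted p was under 0.05 for 6 of the 76, beside 29.5% of all genes. Over the 76 genes the median log2 fold was -0.03, beside -0.18 over all genes. After scaling each library to a common median it was 0.14 beside -0.01 over all genes, and 51 members rather than 35 lay above 0. That scaling called 0 members too, beside 1.76% of all genes (0.925% higher and 0.835% lower).

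The folds were small and their intervals wide. Of the 76 log2 folds, 69 lay within 0.5 of 0, and they ran from -0.81 (Mrpl9) to 0.63 (Mrpl54). The 95% interval reached on either side by 0.74 in the median, 0.44 at the narrowest and 1.21 at the widest, and 74 of the 76 intervals included 0. With intervals of this width, missing the threshold does not show that a gene was the same in both fractions. By name, the 47 Mrpl genes had a median log2 fold of 0.04 with 25 above and 22 below 0. The 29 Mrps genes had a median of -0.07 with 10 above and 19 below 0. The difference between Mrpl and Mrps genes was not tested.

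**Figure D2:**
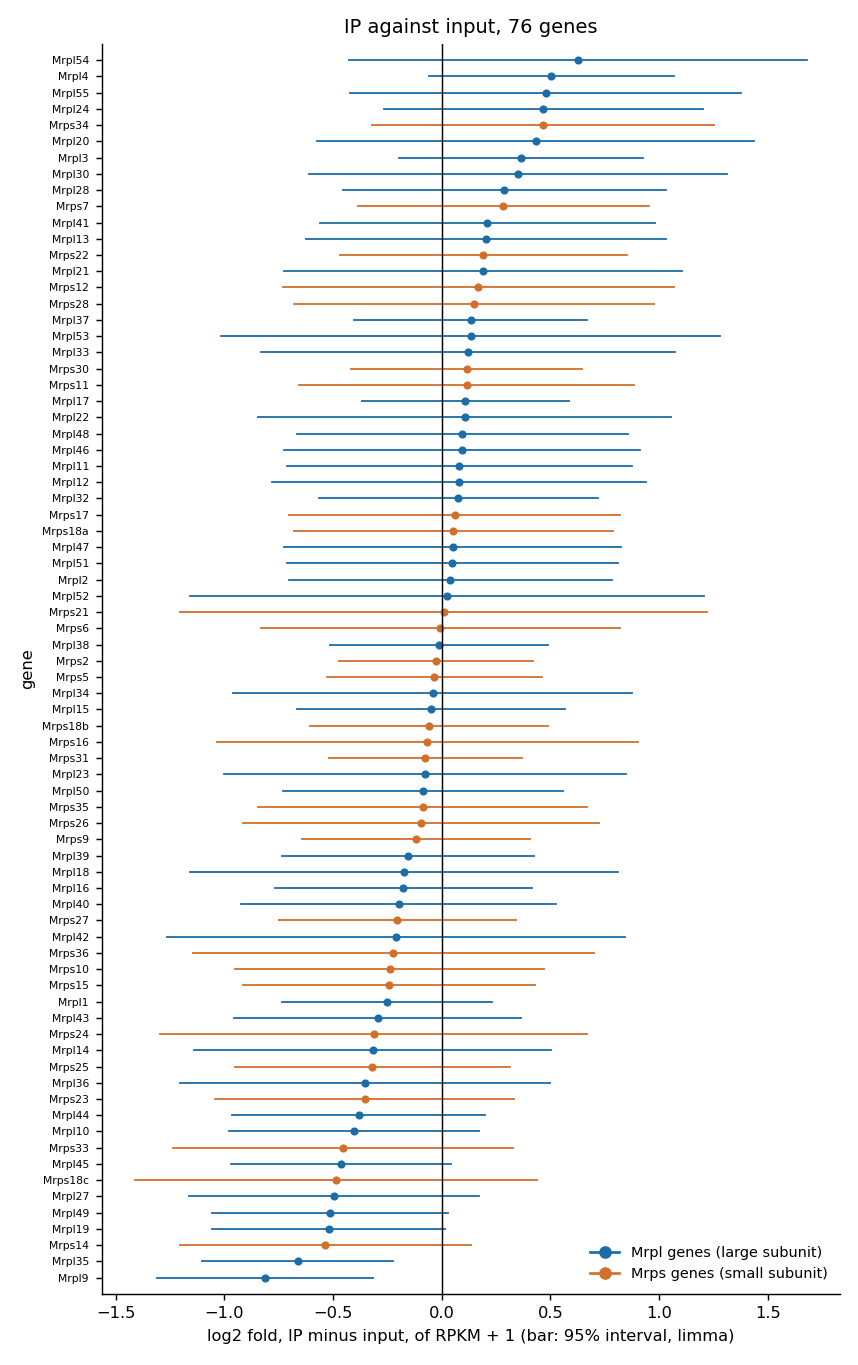
Log2 fold of IP against input (RPKM + 1) for each of the 76 genes, ordered by size, with the 95% interval from limma as a bar, Mrpl genes in blue and Mrps genes in orange. The points run from -0.81 for Mrpl9 to 0.63 for Mrpl54, and the bars of 74 genes cross 0.

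The 76 genes moved together from library to library. Input 3 was the lowest of the 3 inputs for 71 of the 76 genes (93.4%), where it was so for 37.6% of all genes tested. IP 1 was the lowest of the 3 IP libraries for 63 (82.9%, against 37.0%), and IP 2 the highest for 68. A single profile, the mean departure of each library over the 76 genes, held 61.4% of their variance between libraries, beside 4.12% for all genes. The mean departure was 0.21, 0.28 and -0.42 in inputs 1, 2 and 3 and -0.51, 0.44 and 0.00 in IP 1, 2 and 3 on the log2 scale. These are descriptions with no test, since all 76 genes were read in the same 6 libraries. The libraries were taken as 3 pairs and are not known to be independent.

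The 3 challenges differed in direction. In challenge 1, 71 of the 76 genes were lower in IP than in the input of the same number, with a median log2 ratio of -0.72. In challenge 2, 49 were higher in IP (median 0.21), and in challenge 3, 62 were (median 0.38). Of all 12328 genes tested, 7936 were lower in IP in challenge 1, and 4596 and 4882 were higher in challenges 2 and 3. Over all genes the median ratio was alike in the 3 challenges, at -0.22, -0.17 and -0.17. Lower in the first and higher in both others was the course of 45 members, and 14 more were lower in the first and second and higher in the third. The share of all genes on these courses is not given here. Across the 76 genes the ratios of challenges 2 and 3 ran in a like order (Spearman 0.72), while that of challenge 1 did not follow challenge 2 (0.05) or challenge 3 (-0.23). Over all genes these were 0.71, 0.37 and 0.17 in the same sequence.

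**Figure D3:**
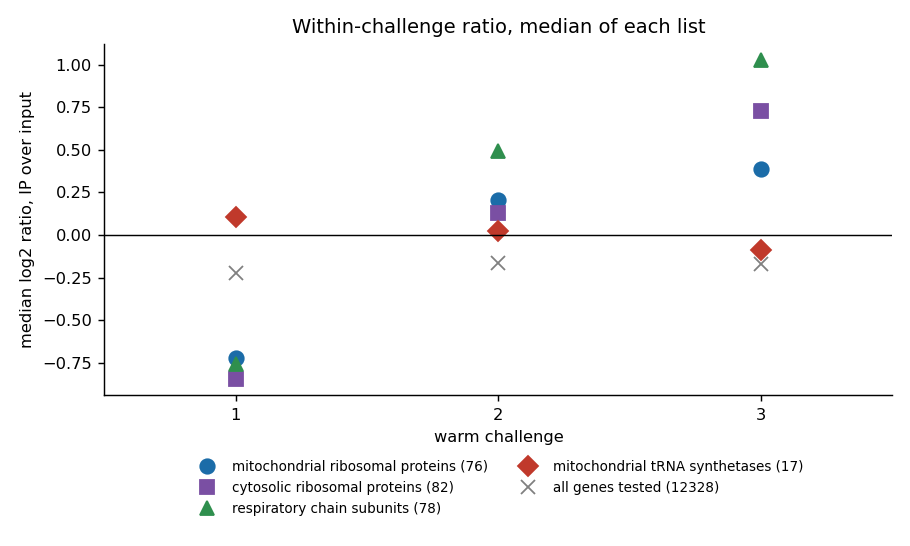
Median log2 ratio of IP over input within each warm challenge (x axis) for the 76 mitochondrial ribosomal protein genes, 3 other sets and all genes tested, 1 point per set and challenge. The 76 genes, the cytosolic ribosomal proteins and the respiratory chain subunits lie between -0.72 and -0.85 in challenge 1 and above 0 in challenges 2 and 3, while all genes and the mitochondrial tRNA synthetases stay between -0.22 and 0.11.

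Leaving out 1 library moved the members' median fold across 0. It was -0.22 without input 3 and -0.28 without IP 2, and 0.06, 0.11 and 0.19 without input 1, input 2 and IP 1, while without IP 3 it was -0.02. Without IP 1, 2 members passed the threshold. These were Mrpl35, lower (log2 fold -0.69, adjusted p = 0.0458 by limma), and Mrpl4, higher (0.73, adjusted p = 0.0464), where 13.8% of all genes were called, 10.2% lower and 3.62% higher. With median scaling added to that omission Mrpl4 alone passed (0.89, adjusted p = 0.0355 by limma), beside 9.32% of all genes (4.73% higher and 4.59% lower). The other 5 omissions called none of the 76.

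Other transcripts also stood low in input 3. Erythroid transcripts (4 of 5 listed) summed to 50.3, 46.0 and 14.1 RPKM in inputs 1, 2 and 3. In IP 1, 2 and 3 they summed to 202, 567 and 228 RPKM. All 3 of those tested were called higher in IP, beside 0.892% of all genes tested. Hypothalamic peptide and factor genes (4 of 6 listed) summed to 212, 125 and 17.9 RPKM in the inputs and 131, 103 and 44.4 RPKM in IP. These sums were mostly Oxt (oxytocin) and Gal (galanin), which went opposite ways between fractions. The log2 fold was -2.94 for Oxt and 1.19 for Gal (adjusted p = 0.125 and 0.297 by limma). With the block Oxt was called lower (adjusted p = 0.0125 by limma), beside 3.99% of all genes, and Gal was not called. Neuronal markers summed to 3478, 3959 and 4832 RPKM in the inputs and 2656, 4817 and 6135 RPKM in IP. Erythroid and neuronal sums were lowest among IP libraries in IP 1, but the neuronal sum was highest among inputs in input 3. That sum was mostly Snap25, at 2790, 3127 and 4144 RPKM in inputs 1, 2 and 3. Syt1 (107.6, 99.3 and 140.5 RPKM) was also highest in input 3. Tubb3 (191.2, 234.1 and 152.8 RPKM) and Elavl4 (60.2, 60.3 and 52.7 RPKM) were lowest there, and Stmn2 (328.5, 438.1 and 342.2 RPKM) lay between. Astrocyte markers took another course, at 99.2, 54.3 and 89.8 RPKM in the inputs and 85.4, 27.9 and 62.3 RPKM in IP. Their sums were lowest in input 2 and IP 2 and highest in input 1 and IP 1. The part of any of these sets in the movement of the ribosomal protein genes was not tested.

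The size of the movement differed between members and was larger for the abundant ones. The departure of input 3 from inputs 1 and 2 had a Spearman correlation of -0.58 with the level in those inputs, and that of IP 1 from IP 2 and IP 3 one of -0.76 with the level in the latter, across the 76 genes. Each departure is computed in part from the libraries that give the level set beside it. The departure of input 3 and that of IP 1, which share no library, correlated by 0.56 over the 76 genes and by 0.19 over all genes tested. Input 3 lay below the mean of the other inputs for 74 of 76 genes (the exceptions were Mrpl19 and, named after its values were seen, Mrps27), and IP 1 below the mean of the other IP libraries for 70.

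Mrps21 had the widest spread among IP libraries (SD 1.11 on the log2 scale). It stood at 189.6, 185.0 and 81.4 RPKM in inputs 1, 2 and 3 and at 58.3, 240.4 and 206.4 RPKM in IP 1, 2 and 3. Inputs and IP libraries overlapped over most of their range, and its log2 fold of 0.01 (SE 0.54) averaged ratios of -1.68, 0.38 and 1.33 in challenges 1, 2 and 3. Mrpl52 stood at 166.2, 148.5 and 52.0 RPKM in the inputs and 57.8, 201.1 and 116.5 RPKM in IP, the widest spread among inputs (SD 0.91 on the log2 scale). Mrpl23, a protein at the exit of the peptide tunnel, had the next widest spread among inputs, at 121.2, 92.4 and 39.2 RPKM, against 53.8, 101.1 and 68.8 RPKM in IP. RefSeq also lists a pseudogene named for Mrpl23, so reads of the pair may have been split or shared. The same holds for Mrpl27 and Mrpl48. Mrpl53, found only in mitochondria, stood at 51.0, 81.2 and 30.8 RPKM in the inputs and at 23.5, 93.3 and 76.6 RPKM in IP. In all 4 genes input 3 was the lowest input and IP 1 the lowest IP library. Over the 76 genes the median SD on the log2 scale was 0.41 among inputs and 0.54 among IP libraries, beside 0.23 and 0.34 over all genes.

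A few members stayed level instead. Mrps31 stood at 24.6, 28.2 and 26.0 RPKM in the inputs and 24.8, 26.7 and 23.2 RPKM in IP, with an SD of 0.09 and 0.10 on the log2 scale and a log2 fold of -0.08 (SE 0.20). Mrps2, a small-subunit protein with bacterial relatives, stood at 27.7, 27.4 and 24.1 RPKM in the inputs and 24.3, 25.4 and 27.9 RPKM in IP. Neither gene was low in input 3 or IP 1 to the degree of the median member, and all 6 values of each lay close together.

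**Figure D4:**
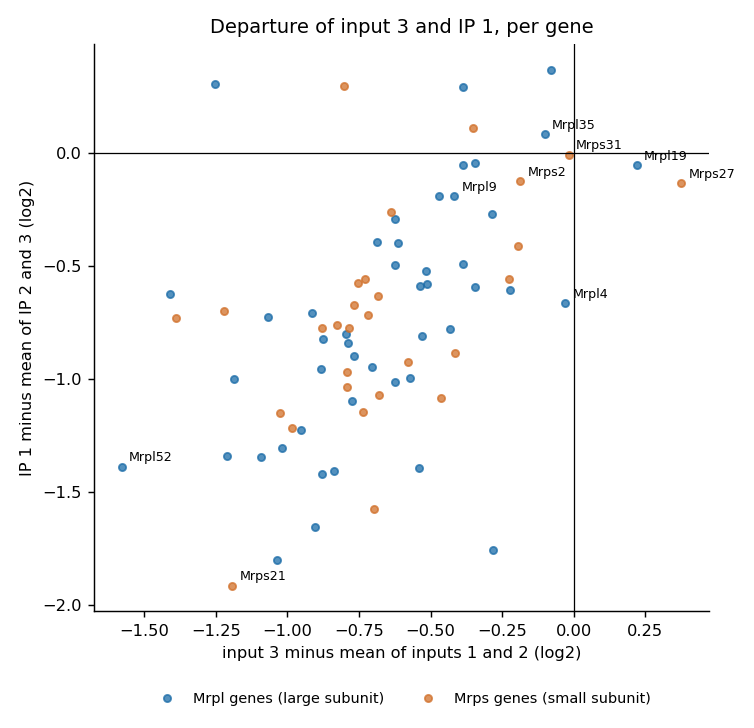
For each of the 76 genes, the departure of input 3 from the mean of inputs 1 and 2 (x axis, log2) against that of IP 1 from the mean of IP 2 and IP 3 (y axis, log2), with Mrpl genes in blue and Mrps genes in orange. Most points lie below 0 on both axes, Mrps21 and Mrpl52 far down, while Mrps31 and Mrps2 lie close to the origin.

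The lowest folds belonged to Mrpl9, Mrpl35, Mrps14, Mrpl19 and Mrpl49, and none passed the threshold. Mrpl9, a large-subunit protein with bacterial relatives, stood at 64.2, 64.1 and 47.8 RPKM in inputs 1, 2 and 3 and at 29.8, 35.9 and 32.5 RPKM in IP. All 3 IP values lay below all 3 inputs. The log2 fold was -0.81 (SE 0.22, 95% interval -1.31 to -0.32, adjusted p = 0.0703 by limma), with the block the adjusted p was 0.0585, and over the 6 omissions it ran from 0.0531 to 0.256. Mrpl35, another protein of bacterial descent, stood at 24.1, 24.8 and 22.7 RPKM in the inputs and at 15.3, 15.5 and 13.3 RPKM in IP. The groups of Mrpl35 did not overlap either, and its ratio was nearly constant, at -0.62, -0.64 and -0.73 in challenges 1, 2 and 3. The log2 fold was -0.66 (SE 0.20, adjusted p = 0.0847 by limma, 0.0692 with the block, and 0.0458 to 0.282 over the omissions).

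Mrpl49, found only in mitochondria, completed the set whose IP values all lay below the inputs, with 38.99, 43.6 and 35.2 RPKM in the inputs and 20.2, 33.01 and 29.7 RPKM in IP. These 3 genes were 3.95% of the 76, beside 23.5% of all genes tested, and no member had all IP values above the inputs, beside 6.85%. The log2 fold of Mrpl49 was -0.51 with an SE of 0.24, and limma gave it an adjusted p of 0.226. Mrps14, a small-subunit protein, stood at 66.9, 81.6 and 55.2 RPKM in the inputs and 30.2, 60.0 and 53.4 RPKM in IP, so that IP 2 overlapped input 3. Its log2 fold was -0.54 with an adjusted p of 0.305 by limma. Mrpl19 stood at 10.7, 13.0 and 13.9 RPKM in the inputs and 8.15, 10.9 and 6.56 RPKM in IP, with IP 2 just above input 1. Its log2 fold of -0.52 had an adjusted p of 0.217 by limma.

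In all, 11 members were lower in IP in each of the 3 challenges, 14.5% beside 37.5% of all genes, and 9 of the 11 were Mrpl genes. Beside the 5 just named they were Mrpl1, Mrpl10, Mrpl27, Mrpl44, Mrpl45 and Mrps23, the last 5 of which were named after their values were seen. Another 3 members, Mrpl4, Mrps30 and (named likewise) Mrps22, were higher in all 3, 3.95% beside 14% of all genes. Both shares lie below those of all genes, and the differences were not tested.

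The highest folds belonged to Mrpl54, Mrpl4, Mrpl55, Mrpl24 and Mrps34, and again none passed. Mrpl54, found only in mitochondria, stood at 34.1, 34.2 and 14.2 RPKM in the inputs and at 21.1, 75.7 and 39.8 RPKM in IP. IP 1 fell between the inputs, and the log2 fold was 0.63 (SE 0.47, adjusted p = 0.450 by limma). Mrpl4, which lines the tunnel through which the new peptide leaves, stood at 34.8, 43.4 and 38.0 RPKM in the inputs and at 40.3, 62.1 and 66.9 RPKM in IP. It was the member with the highest ratio in challenge 1, 0.21, followed by 0.51 and 0.80, and its log2 fold was 0.50 with an SE of 0.25 (limma adjusted p = 0.253, or 0.152 with the block). Mrpl55 had a log2 fold of 0.48 (SE 0.40), Mrpl24 0.47 (SE 0.33) and Mrps34 0.46 (SE 0.35). Like Mrpl54, these 3 were lower in IP in challenge 1 and higher in challenges 2 and 3.

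**Figure D5:**
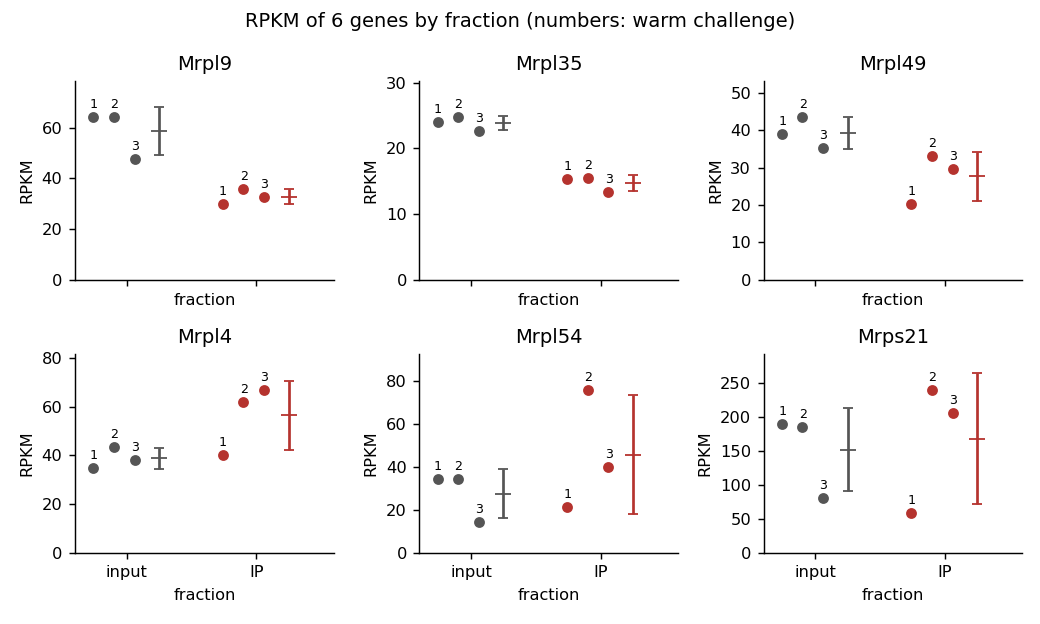
RPKM (linear axis from 0) of 6 genes in inputs (grey) and IP libraries (red), with the number of the warm challenge at each point and the mean and SD (n = 3) beside them. Mrpl9, Mrpl35 and Mrpl49 have all IP points below the inputs, Mrpl4 has IP 1 (40.3) within the range of the inputs, and in Mrpl54 and Mrps21 the points of the 2 fractions are interleaved.

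The Mrps18 family has 3 members that share a bacterial ancestor, and they differed in level. Mrps18a stood at 60.9 ± 18.3 RPKM in input and 63.4 ± 21.0 in IP (SD, n = 3 each), Mrps18b at 22.0 ± 5.47 and 20.7 ± 2.39, and Mrps18c at 73.6 ± 30.4 and 52.3 ± 25.7. In every library Mrps18b was the lowest of the 3, and the spreads of the other 2 overlapped. Their log2 folds were 0.05 (SE 0.33), -0.06 (SE 0.24) and -0.49 (SE 0.41) in the same order, with adjusted p of 0.947, 0.914 and 0.507 by limma. Mrpl12, a stalk protein that has also been found with the mitochondrial RNA polymerase, stood at 84.6, 93.8 and 48.1 RPKM in the inputs and 52.1, 132.1 and 65.3 RPKM in IP, and its log2 fold was 0.08 with an adjusted p of 0.933 by limma. Mrps36 stood at 142.7, 111.2 and 63.2 RPKM in the inputs and 48.4, 129.2 and 100.2 RPKM in IP, and its log2 fold was -0.22 with an adjusted p of 0.785. It shared the low input 3 and IP 1 although its product is not a ribosomal protein. RefSeq lists 3 pseudogenes named for it, so its reads may have been shared.

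Of the 67 genes with a promoter in the RefSeq table, 25 (37.3%) had the start of another gene within 1000 bases on the other strand, pointing away, beside 19.3% of genes tested. In 1 such pair both genes are members, chosen for that reason. Mrpl46 and Mrps11 are separated by the 41 bases of chr7:78783090-78783130, shown here on the plus strand, that of Mrps11.
Between Mrpl46 and Mrps11: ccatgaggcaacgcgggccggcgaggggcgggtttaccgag
Mrpl46 stood at 37.3, 34.2 and 18.5 RPKM in the inputs and 21.9, 51.2 and 25.7 RPKM in IP. Mrps11 stood at 25.4, 25.6 and 14.3 RPKM in the inputs and 13.8, 31.9 and 27.0 RPKM in IP. Both were lowest among inputs in input 3 and among IP libraries in IP 1, as most members were, and their log2 folds were 0.09 (SE 0.36) and 0.11 (SE 0.34).

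Motifs were searched on both strands in the 250 bases before and 50 after each start. The NRF1 motif (GCGCA, any base, then GCGC) was present in 12 of 67 members (17.9%). It was present in 11.8% of the 8520 tested genes with a promoter and in 5.19% of all 27025 RefSeq genes searched. The ETS motif CCGGAAG was present in 24 (35.8%, beside 19.3% and 9.93%) and the YY1 motif AAGATGGCG in 8 (11.9%, beside 3.60% and 1.64%), and 39 (58.2%) held at least 1 of the 3, beside 30.8% of tested genes. Mrpl12, Mrpl9 and Mrps21 were among those with the NRF1 motif, and all 3 Mrps18 genes among those with the ETS motif. The median log2 fold was -0.11 with and -0.03 without the NRF1 motif, 0.02 and -0.08 for ETS, and -0.21 and -0.03 for YY1. The differences between genes with and without a motif were not tested. A match describes the letters and does not show a bound site.

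Of 8 genes listed for proteins of the mitochondrial ribosome under other names, 0 were called, beside 4.19% of all genes. Among the 8 is Oxa1l, whose product is a membrane insertase that binds this ribosome and not a part of it. At an unadjusted p under 0.05 by limma, 0 of the 8 passed as well, beside 24.4% of all genes. Ptcd3, a small-subunit protein that binds RNA, stood at 22.05, 21.8 and 20.7 RPKM in the inputs and 20.3, 14.9 and 11.9 RPKM in IP. Its IP values were all below its inputs, and its log2 fold of -0.46 had an adjusted p of 0.264 by limma. For Mrp63, the older symbol of Mrpl57, the log2 fold was -0.52 with an adjusted p of 0.308. The median log2 fold of the 8 was 0.04. Input 3 was the lowest input in 7 of the 8 (the exception was Oxa1l) and IP 1 the lowest IP library in 5. The median drop of input 3 was -0.44 and that of IP 1 was -0.31 on the log2 scale, beside -0.69 and -0.73 in the 76 genes, and the differences were not tested.

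The other machinery of mitochondrial translation held no call with all 6 libraries. Over all genes, 4.19% were called and 24.4% had an unadjusted p under 0.05 by limma. Of 13 translation factors tested 0 passed, with 1 at an unadjusted p under 0.05 by limma and a median log2 fold of -0.155. Gfm1, the elongation factor that moves the mitochondrial ribosome along, stood at 13.0, 12.2 and 14.9 RPKM in the inputs and 22.3, 21.3 and 23.0 RPKM in IP. All its IP values lay above all inputs and hardly differed from one another (log2 fold 0.69, SE 0.20, adjusted p = 0.0773 by limma, 0.0644 with the block). Without IP 1 Gfm1 passed the threshold, at a log2 fold of 0.69 and an adjusted p of 0.0492 by limma. In that setting 13.8% of all genes were called. Gfm2, a factor that recycles ribosomes, had a log2 fold of -0.44 (adjusted p = 0.262). Of 18 assembly and rRNA-modifying factors tested, of 24 listed, 0 passed, with 4 at an unadjusted p under 0.05 (median -0.07). Trub2, a pseudouridine synthase, had -0.62 (adjusted p = 0.116) and Ftsj2, an older symbol of the methyltransferase gene Mrm2, -0.80 (adjusted p = 0.133).

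Of 17 mitochondrial aminoacyl-tRNA synthetases 0 passed by limma, with 1 at an unadjusted p under 0.05 (median 0.02). For each list in this paragraph, the shares over all genes were 4.19% passing and 24.4% at an unadjusted p under 0.05. Wars2, for tryptophan, had a log2 fold of -0.57 (adjusted p = 0.129). Lars2, for leucine, was listed at 4375, 3978 and 3063 RPKM in the inputs and 7941, 7318 and 5969 RPKM in IP. Its log2 fold was 0.90 with an adjusted p of 0.340 by limma. These levels lay far above the list's median of 3.55 to 4.78 RPKM per library. Whether all these reads came from Lars2 transcripts was not tested. Of 11 genes of mitochondrial genome transcription, copying and RNA stability tested, of 15 listed, 0 passed and 1 had an unadjusted p under 0.05 (median -0.01), with Lrpprc, which stabilizes mitochondrial messenger RNA, at 0.56 (adjusted p = 0.187) and Tfb2m at -0.37 (adjusted p = 0.344). Of 9 nuclear regulators 0 passed and 2 had an unadjusted p under 0.05 (median -0.04), with Gabpb2 at -0.76 (adjusted p = 0.116) and Gabpa at -0.57 (adjusted p = 0.188). Gabpb2 passed without IP 1, at a log2 fold of -0.92 and an adjusted p of 0.0491 by limma, where 13.8% of all genes were called. The shared library profile held 45.1% of the variance between libraries in the 8 genes listed under other names, Oxa1l included. It held 13.7% in the translation factors, 14.2% in the assembly factors and 1.80% in the synthetases. In the genome maintenance genes it held 0.931% and in the regulators 12.8%, against 61.4% in the 76 ribosomal protein genes. The share depends on the number of genes, since each gene adds to the mean it is measured against. It runs higher in short lists even where genes do not move together. The differences between these shares were not tested.

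A like pattern over the libraries was seen in genes of cytosolic ribosomal proteins and of nuclear-encoded respiratory chain subunits. Both sets were taken by symbol pattern, so some genes, such as Rpl7l1, Atp5s and Atp5sl, may not encode a subunit. A shared profile held 78.7% of the variance in the 82 cytosolic genes and 67.25% in the 78 respiratory chain genes tested. Input 3 was the lowest input for 82 of 82 and 67 of 78, and IP 1 the lowest IP library for 58 and 69. The drop of input 3 below inputs 1 and 2 had a median of -1.33 on the log2 scale in the cytosolic set, -1.005 in the respiratory chain set and -0.69 in the mitochondrial ribosomal set. In IP 1 the median drops were -0.62, -1.02 and -0.73. Neither set held a call, beside 4.19% of all genes. At an unadjusted p under 0.05 by limma each had 1, beside 24.4% of all genes. Fau, a cytosolic ribosomal protein made as a fusion with a ubiquitin-like protein, stood at a log2 fold of 1.33 with an adjusted p of 0.185 by limma, and Rpl7l1 -0.57 (adjusted p = 0.224). Ndufs1, a subunit of complex I, had 0.53 (adjusted p = 0.188), and Cox6b2 -1.03 (adjusted p = 0.207). The median log2 fold was -0.02 in the cytosolic set and 0.22 in the respiratory chain set, where 61 of 78 genes lay above 0 against 35 of 76 here. The difference between the sets was not tested.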

How the data were processed

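Per the file headers, the deposited values are RPKM, not logged, in 1 table with a column per library (6 in all). The submitters' processing notes name the build mm9. Which aligner, counter and gene annotation were used is not given in the sources used here. Listed values start at 0.101 RPKM. Per the labels' protocols, cDNA was amplified before library preparation.

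Values were analysed as log2(RPKM + 1), which understates folds of low genes, for the 12328 entries with at least 1 RPKM in 3 or more libraries. IP was compared with input by limma 3.58.1 (mean-variance trend, two-sided, no block) in R 4.3.3, with Benjamini-Hochberg adjustment over all genes tested and a threshold of 0.05. The fit was also run on simulated data with independent noise per gene and library. Such data lack a shared library profile and pairing, so they do not bear on the movement of the members between libraries. Python 3.11.15, pandas 2.3.3, scipy 1.17.1 and matplotlib 3.10.9 served for the rest. RefSeq symbols matched 76 of 76 members.

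The labels give an input and an IP library the same challenge number, and they were taken as paired on that ground. Across genes, the deviations of paired libraries from their group means correlated by 0.05, 0.61 and 0.27 for numbers 1, 2 and 3. Over the 76 members alone these were -0.22, 0.72 and -0.06, while input 3 and IP 1 correlated by 0.51 and input 1 and IP 2 by 0.35, so the pairing rests on the labels.

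The members and lists were chosen with earlier results of these data known. Named members are those with the 5 largest folds each way, the 3 highest and lowest input means, the 2 widest and narrowest spreads in each fraction, the Mrps18 genes, Mrpl12 and Mrps36. From each list the 2 smallest p-values are named. Alternatives were 2 pseudocounts, 2 filters, 2 scalings, no trend, the block and the omission of each library, and those said to be added were chosen after seeing the data.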

Additional observations from a re-analysis of the deposited data

How the results depend on the processing

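In all settings but the omission of IP 1, alone or with median scaling, 0 of the 76 members were called higher and 0 lower. Without IP 1, 1 was called higher and 1 lower, and with median scaling added (chosen after seeing the data) 1 higher. The count over all genes was 516, with 217 after median scaling, 253 after quantile normalization, 656 with the replicate block and 21 to 1693 when 1 library was left out. Chosen after seeing the data were median scaling with the block (377), without input 3 (50) or without IP 1 (1140), and scaling to the members' own median without (105) and with the block (153). The block changed no call of a member. The members' median fold lay between -0.28 and 0.36 over all settings, within the spread between challenges, and was -0.03 without Mrps36.

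Folds near 0 changed sign in some settings, and none of these was called. After median scaling, with or without the block (the former chosen after seeing the data), Mrpl23 was at 0.096, Mrps18b at 0.11, Mrps2 at 0.15 and Mrps31 at 0.098. After quantile normalization, Mrps18b was at 0.058, Mrps2 at 0.074, Mrps21 at -0.026 and Mrps31 at 0.024. Scaled to the members' median, with or without the block, Mrps21 was at -0.0024. With median scaling and without input 3, Mrpl12 was at -0.050, Mrpl52 at -0.34, Mrpl53 at -0.049, Mrps18a at -0.059, Mrps2 at 0.073, Mrps21 at -0.22 and Mrps31 at 0.082. With median scaling and without IP 1, Mrpl23 was at 0.30, Mrps18b at 0.20, Mrps2 at 0.18, Mrps31 at 0.095 and Mrps36 at 0.35. With 1 library left out, the folds ranged from -0.31 to 0.35 for Mrpl12, -0.55 to 0.25 for Mrpl23, -0.50 to 0.49 for Mrpl52, -0.24 to 0.73 for Mrpl53, -0.22 to 0.31 for Mrps18a, -0.27 to 0.072 for Mrps18b, -0.091 to 0.014 for Mrps2, -0.39 to 0.65 for Mrps21, -0.015 to 0.28 for Mrps30 and -0.55 to 0.18 for Mrps36. The cause was not tested. Depth is unknown, so no counting error can be given.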
